A study of Homo sapiens with 6 samples.

Results

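Human chromosome 19 carries the densest runs of zinc finger genes in the genome, and 247 of the 29982 gene symbols in the expression table of this series were ZNF genes placed there. Members were chosen by name and position, as symbols made of ZNF, a number and an optional A or B, with a locus on chromosome 19. Neither property uses a measured value. The cells were OVCAR5, an established line labelled as ovarian cancer, given 10 µM SpiD7 or the solvent DMSO. SpiD7 is a spirocyclic dimer built from a monomer that binds cysteines covalently, and the study asked whether it turns on the unfolded protein response. The groups were DMSO (2 libraries) and SpiD7 for 2 h (2 libraries), 6 h (1 library) and 12 h (1 library), all from 1 cell line, and the labels give no time for DMSO and do not say whether replicates came from separate cultures.

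Zinc finger proteins of the C2H2 kind bind DNA through strings of short, zinc-holding fingers, and the number and order of the fingers set the sequence that is read. Most of those on chromosome 19 also carry a KRAB domain, which recruits the corepressor TRIM28 (KAP1) and, through it, the histone methyltransferase SETDB1 and HP1 proteins, a path best known for silencing mobile elements. The genes arose by repeated tandem duplication, so neighbours are close copies, and their transcripts are widely described as rare and short-lived. Transcript lifetime was not measured here.

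All 247 symbols matched a gene of GENCODE release 29, 243 of them with a coding sequence. Translated from the longest coding sequence of each gene, 201 of the 243 (82.7%) held a KRAB pattern and 3 a SCAN pattern, and the number of finger patterns ran from 0 to 39 with a median of 12. The label of mostly KRAB zinc finger genes therefore held.

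Promoters shared one more feature. RefSeq lists 260 start sites for 212 of the members (GRCh38.p14), and the ETS site CCGGAAG, which the GABPA and ELK families of activators can bind, lay within 250 bases before to 50 after 39.2% of them on either strand. The share was 10.3% over all 35116 listed starts and 13.9% over the 1657 starts of other genes of chromosome 19. Of the 114 matches in members, 91 (79.8%) lay no more than 60 bases before the start or after it, against 55.3% of the 4335 matches over all starts. Starts of KRAB members held the site in 43.3% of 210 cases and starts of members without the pattern in 22.0% of 50. The 100 bases below, read 5′ to 3′ and ending at the outermost start in RefSeq or GENCODE, are those of the 4 largest differences at 12 h whose window held the site, after ZNF296, which had the largest difference of all and no match. ETS matches are in capitals, as is a CARE match (TGATGNAA, a C/EBP-ATF element) next to the one of ZNF460.

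ZNF296, chr19:45076589-45076688, minus strand: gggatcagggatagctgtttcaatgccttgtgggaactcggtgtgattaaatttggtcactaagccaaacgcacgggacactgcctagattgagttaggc

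ZNF460, chr19:57279882-57279981, plus strand: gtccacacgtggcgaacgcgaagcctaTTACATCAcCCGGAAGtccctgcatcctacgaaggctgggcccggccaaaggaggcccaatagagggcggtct

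ZNF222, chr19:44025242-44025341, plus strand: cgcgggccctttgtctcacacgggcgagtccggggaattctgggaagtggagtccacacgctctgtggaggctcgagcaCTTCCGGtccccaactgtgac

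ZNF431, chr19:21141924-21142023, plus strand: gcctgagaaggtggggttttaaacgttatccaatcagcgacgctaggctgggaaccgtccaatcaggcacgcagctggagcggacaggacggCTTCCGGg

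ZNF274, chr19:58182929-58183028, plus strand: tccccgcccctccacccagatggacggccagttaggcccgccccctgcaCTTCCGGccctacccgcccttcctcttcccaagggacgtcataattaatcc

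The capitals stood 64 bases before the RefSeq start in ZNF460, 58 in ZNF222, 24 in ZNF431 and 83 in ZNF274. The windows were chosen for holding these letters, so only their position varies. Elements of the stress pathways the study was about were not frequent in the members. The heat shock element GAANNTTC was at 8.08% of member starts against 6.77% of all, CARE at 1.54% against 3.62%, the antioxidant element TGACNNNGC at 15% against 13.3%, and the unfolded protein elements ERSE and UPRE (TGACGTGG) at 0.385% each against 0.0769% and 0.729%. The palindromic NRF1 site was at 3.08% against 1.24% and the YY1 site AAGATGGC at 5.38% against 2.89%. A match is a run of letters and not a shown binding site.

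**Figure D1:**
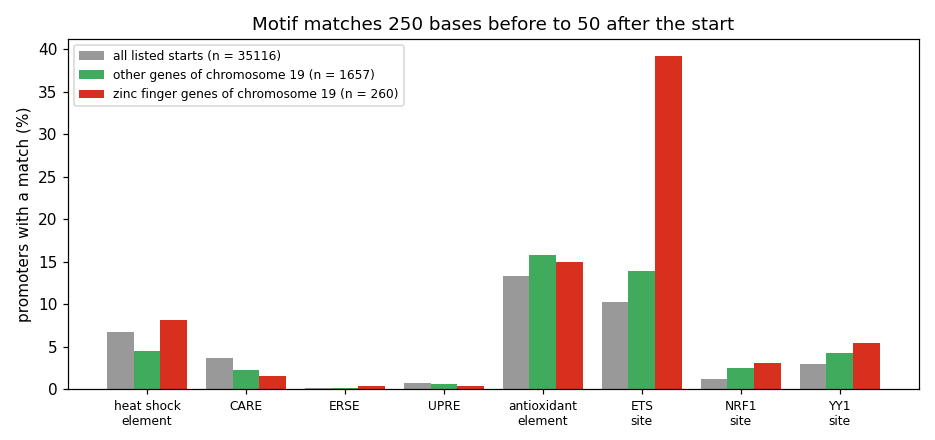
Share of promoters (%) holding each motif on either strand, 250 bases before to 50 after the start, for all listed starts, other genes of chromosome 19 and the zinc finger genes of chromosome 19. The ETS site stands at 39.2% in the zinc finger genes against 10.3% and 13.9%, while the other motifs differ by a few points at most.

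Expression was deposited as FPKM (fragments scaled to transcript length and library size), so the read depth behind a value is unknown. DMSO replicate 2 and 2 h replicate 2 were solved from columns that behave as the mean of both libraries, a reading that rests on the values alone. Of the 247 members, 132 (53.4%) had a mean of at least 1 FPKM over the 6 libraries, against 44.3% of all symbols, and 29 were listed at 0 in every library. The level of those that passed was low, with a median of 4.81 FPKM against 11.6 over the 13287 genes tested. Of the 132, 10 had a DMSO mean under 1 and so passed through the treated libraries. Counts of direction, order and 2-fold differences over all members are also given for the 122 with a DMSO mean of at least 1. The replicate 2 libraries stood apart, with 25% (DMSO) and 21.8% (2 h) of their summed FPKM in the gene MIR6723 against 5.04 to 9.19% in the other libraries. The epithelial markers EPCAM, CDH1, KRT7, KRT8, KRT18 and KRT19 all passed the filter (together 3151 to 4721 FPKM, most of it KRT8 and KRT18), with CDH1 the lowest at 10.4 to 19.3 FPKM. Of the ovarian and tubal markers PAX8 was low (1.64 to 2.12 FPKM), WT1 and MUC16 were under 1, and SOX17 was listed at 0 in all 6 libraries. Of 4 leukocyte markers PTPRC was at most 0.0317 FPKM, CD3E was listed at 0 and CD79A reached 0.637, while CD14 passed the filter at 3.10 to 5.68 FPKM before 12 h and stood at 9.36 FPKM at 12 h, a log2 difference of 1.04. The endothelial marker PECAM1 reached 10.7 and 7.74 FPKM in the replicate 2 libraries against 0.320 to 0.961 elsewhere. What these library differences add to the results was not tested. In bulk RNA, a change in the number of cells and in the RNA per cell cannot be told apart.

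The zinc finger genes of chromosome 19 were higher after SpiD7 at each time. Differences are on the log2(FPKM + 0.1) scale from the mean of both DMSO libraries, a scale that understates the difference of low genes. At 2 h, 114 of the 132 were higher (48.1% of all genes tested were), with a median difference of 0.35 against -0.01 over all genes. At 6 h, 99 were higher (53.2% of all genes), with a median of 0.34 against 0.03. At 12 h, 116 were higher (45.2% of all genes), with a median of 0.59 against -0.05. The median was 0.33 in the first 2 h pair and 0.37 in the second. Against DMSO replicates 1 and 2 in turn, it was 0.29 and 0.40 at 6 h and 0.53 and 0.65 at 12 h, while DMSO replicate 2 itself lay 0.10 under replicate 1. Of the 122 members with a DMSO mean of at least 1, 104, 89 and 106 were higher at 2 h, 6 h and 12 h. Among the 13015 genes held to that limit, 46.6%, 51.8% and 43.5% were. The medians were 0.33, 0.30 and 0.56 in the 122 and -0.02, 0.02 and -0.07 in those genes.

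Differences past 2-fold were in 1 direction. At 2 h, 6 of the 132 members (4.55%) were over 2-fold higher, against 2.32% of all genes. The count was 24 (18.2%) at 6 h against 5.66%, and 34 (25.8%) at 12 h against 6.48%. No member was over 2-fold lower at any time, where 0.662%, 3.1% and 3.76% of all genes were. Low genes vary more, and among the 3718 genes of 1 to 5 FPKM the background was 4.25%, 10.2% and 11.9% higher. Of the 73 members of that range, 3 (4.11%), 14 (19.2%) and 24 (32.9%) were past the limit, so the 2 h share was not above that background. Of the 122 members with a DMSO mean of at least 1, 6, 18 and 29 were over 2-fold higher, against 1.13%, 4.02% and 4.6% of the 13015 genes held to the same limit. Held to a difference over 2-fold from each DMSO library, 16 members remained at 6 h (3.21% of all genes) and 27 at 12 h (3.88%). With a pseudocount of 1 the counts were 2 at 2 h (1.32% of all genes), 14 at 6 h (3.88%) and 19 at 12 h (4.40%), so the 2 h count then stood near the background. Without DMSO replicate 2 the 2 h count was 8 of 132 against 5.59% of all genes, also near it, and without 2 h replicate 1 it was 8 against 4.41%.

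**Figure D2:**
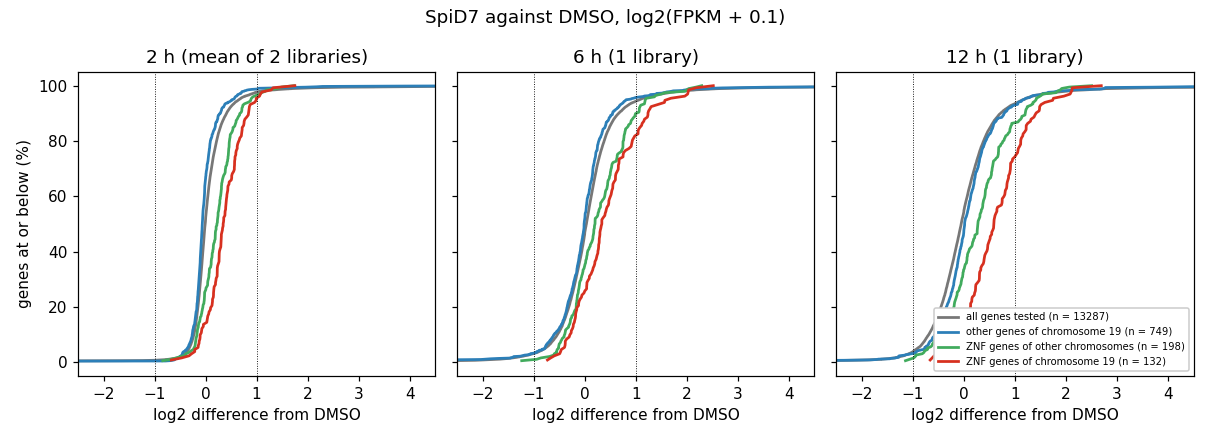
Cumulative share of genes (%) against the log2 difference from DMSO at 2 h, 6 h and 12 h for 4 gene groups, with dotted lines at 2-fold. The zinc finger genes of chromosome 19 lie to the right of the other groups over most of their range, with medians of 0.35, 0.34 and 0.59, and their curve starts inside the lower 2-fold line.

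The libraries of the 2 h pair allow a check of order. The difference was above 0 in both 2 h pairs in 101 members (31.5% of all genes). In 68 members both 2 h libraries were above both DMSO libraries (13.7% of all genes), and in 4 both were below (8.1%). All 4 SpiD7 libraries were above both DMSO libraries in 56 members (8.93% of all genes), and below them in 1 (5.04%), which was ZNF414. The single libraries lay above both DMSO libraries in 85 members at 6 h (31.6%) and 99 at 12 h (30.1%), and below both in 23 (29.2%) and 10 (35.6%). The difference was above 0 at 2 h, larger at 6 h and larger again at 12 h in 39 members (8.78%), and the reverse order below 0 was seen in none (10.7%). Counts follow for the 122 members with a DMSO mean of at least 1, against the 13015 genes held to it. Both 2 h libraries were above both DMSO libraries in 63 and below in 4 (12.6% and 8.49%). All 4 SpiD7 libraries were above in 51 and below in 1 (7.94% and 5.32%). The 6 h library was above in 75 and below in 23 (29.8% and 30.6%). The 12 h library was above in 89 and below in 10 (28.2% and 37%). The DMSO libraries were over 2-fold apart in 8 members (6.06%) against 13.5% of all genes, and the 2 h libraries in 3 against 10.9% (1 of the 122 with a DMSO mean of at least 1).

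No single member passed the test. In simulated data with each gene's own spread, limma called 0% of 200 changed genes, so a count of 0 does not show absence of change. With the median spread of genes of like level it called 98% of them at 2 h. The changed genes had a median log2 difference of 1.97 there, against 0.35 in the members. Recovery at the size seen in the members was therefore not tested. With limma and Benjamini-Hochberg adjustment over 13287 genes, 0 members had an adjusted p under 0.05 at 2 h (0.0226% of all genes were called, 3 in number), and the smallest unadjusted limma p was 0.00268, for ZNF57. Unadjusted limma p was under 0.05 in 29 members, all higher, against 2.52% of all genes higher and 0.324% lower. That count was 8 without DMSO replicate 1, 5 without DMSO replicate 2, 5 without 2 h replicate 1 and 4 without 2 h replicate 2, against 1.51%, 2.28%, 1.25% and 0.993% of all genes. Over all SpiD7 libraries, again 0 were called by limma (0.564% of all genes), with a smallest adjusted p of 0.122, and 42 had an unadjusted p under 0.05, all higher (6.38% of all genes higher, 1.84% lower). Leaving out the same libraries in that order gave 26, 22, 26 and 25, against 3.90%, 4.48%, 4.06% and 3.96% of all genes. The contrasts that rest on a single library have no spread of their own and borrow that of the DMSO and 2 h pairs, assuming that the single library varies like them. In them limma called 0 members at 6 h (0.294% of all genes), 0 at 12 h (0.339%) and 0 between 12 h and 2 h (0.361%). Unadjusted p was under 0.05 and the value higher in 24 members at 6 h (4.51% of all genes), 43 at 12 h (5.45%) and 12 between 12 h and 2 h (3%), and lower in 1 member each (1.05%, 3.74% and 3%). Taking the mean columns as if they were second libraries gave 2 calls at 2 h and 29 over all SpiD7 libraries, a reading in which both columns of a group share their first library and the spread shrinks by construction. At 2 h, 8.99% of all genes then had an unadjusted limma p under 0.05 and were higher, so these calls are no result about the members.

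ZNF genes of other chromosomes, chosen by the same name pattern, were higher too, though by less. The 198 that passed the filter had medians of 0.23, 0.20 and 0.28, with 7, 20 and 27 over 2-fold higher and 0, 1 and 2 over 2-fold lower. Every SpiD7 library was above both DMSO libraries in 59 of the 198 (29.8%), against 42.4% of members, and below both in 6. Both 2 h libraries were above both DMSO libraries in 79 (39.9%), against 51.5% of members, and below both in 9. Unadjusted limma p over all SpiD7 libraries was under 0.05 and the value higher in 42, against 42 of the 132 members. The value was lower with such a p in 3, against 0 members. At 2 h these counts were 19 and 1, against 29 and 0 members. The 749 other genes of chromosome 19 had medians of -0.06, -0.01 and 0.02. These groups are set side by side without a test, since genes are not replicates and the libraries are shared.

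Among members, medians were higher in those with the KRAB pattern, while counts of higher members did not all follow. The 102 members with it had medians of 0.41, 0.47 and 0.70, and 30 of them (29.4%) were over 2-fold higher at 12 h. Without it, 30 members had medians of 0.11, 0.11 and 0.22, with 4 (13.3%) past 2-fold. The pattern is a short run of residues that can miss a divergent KRAB domain, so members without it were not shown to lack the domain. The classes also differed in level, at a median of 4.34 FPKM with the pattern and 9.0 without. Restricted to members of at least 5 FPKM, the 12 h medians were 0.48 (37 with) and 0.32 (22 without), and the 2 h medians 0.41 and 0.06, but 81.1% with the pattern and 90.9% without were higher at 12 h. At 2 h, 4 with the pattern (3.92% of 102) and 2 without (6.67% of 30) were past 2-fold. Finger number followed the same order in the 12 h medians, at 0.70 in the 88 members with 10 or more fingers and 0.37 in the 44 with 1 to 9. Of the 88, 75 also held the KRAB pattern, so the splits overlap. Levels differed here too, at medians of 4.15 and 7.78 FPKM. At 2 h, 4.55% of each finger class were past 2-fold higher, against 2.32% of all genes. The ETS site did not separate the 12 h medians, at 0.59 in 57 members with a match at any start and 0.59 in 63 without. Over 2-fold higher at 12 h were 16 (28.1%) of the former and 13 (20.6%) of the latter, against 6.48% of all genes. At 6 h these counts were 14 and 8, against 5.66% of all genes. The share higher at 12 h went the other way, at 84.2% with a match and 90.5% without.

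**Figure D3:**
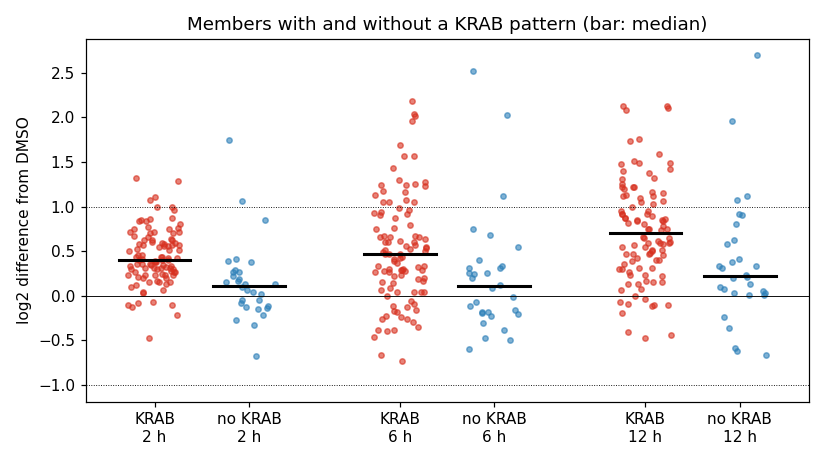
Log2 difference from DMSO of each member that passed the level filter, by KRAB pattern and time, with bars at the medians and dotted lines at 2-fold. The 102 members with the pattern have medians of 0.41, 0.47 and 0.70 and the 30 without 0.11, 0.11 and 0.22, with wide overlap, and the highest point at each time is ZNF296, which lacks it.

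ZNF296 had the largest difference at 12 h. It encodes a 6-finger protein without a KRAB pattern (chr19:45071500-45076588, minus strand). Its level was 3.45 and 0.849 FPKM in DMSO, 7.54 and 4.87 after 2 h, 10.4 after 6 h and 11.8 after 12 h. Every SpiD7 library was above both DMSO libraries, but these lay far apart, so the log2 differences of 1.75, 2.52 and 2.69 lean on the lower one. Without DMSO replicate 2 its difference was 0.80 at 2 h and 1.74 at 12 h, and no longer the largest at 12 h, where ZNF841 then had 2.24. The limma estimate at 2 h had a standard error of 0.77, with an adjusted p of 1.

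ZNF841, ZNF430, ZNF460 and ZNF416 were among genes the study itself picked from these libraries, so their direction is no independent evidence. ZNF841 (20 fingers, KRAB) went from 4.30 and 5.08 FPKM in DMSO to 6.71 and 7.24 after 2 h, 11.7 after 6 h and 20.7 after 12 h. The step after 2 h was its larger one, with a limma difference of 1.56 between the single 12 h library and 2 h and an adjusted p of 0.571. ZNF430 (11 fingers, KRAB) stood at 1.78 and 1.54 FPKM in DMSO, 3.33 and 2.63 after 2 h, 6.72 after 6 h and 7.52 after 12 h. Both genes thus stood higher at each later time, without overlap with DMSO.

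ZNF460 (11 fingers, KRAB) was at 1.19 and 1.42 FPKM in DMSO, 2.28 and 3.54 after 2 h, 6.23 after 6 h and 5.81 after 12 h. ZNF416 (11 fingers, KRAB) was at 3.86 and 2.01 in DMSO, 6.20 and 5.15 after 2 h, 6.21 after 6 h and 9.56 after 12 h. Over all SpiD7 libraries the limma log2 differences of the 4 genes were 1.33 ± 0.16 (SE) for ZNF841, 1.63 ± 0.19 for ZNF430, 1.78 ± 0.26 for ZNF460 and 1.29 ± 0.34 for ZNF416, with adjusted p of 0.19, 0.174, 0.26 and 0.507. All libraries after SpiD7 lay above both DMSO libraries in each of the 4.

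ZNF473, also called ZFP100, works with the U7 particle in forming the ends of histone transcripts, and it sits alone on the chromosome. It had 7.39 and 4.31 FPKM in DMSO, 14.2 and 9.87 after 2 h, 23.3 after 6 h and 22.3 after 12 h, log2 differences of 1.06, 2.03 and 1.96. ZNF222 (8 fingers, KRAB) had 3.26 and 4.60 FPKM in DMSO, 7.65 and 9.33 after 2 h, 9.55 after 6 h and 13.3 after 12 h. In both genes the lowest SpiD7 library exceeded the highest DMSO library. ZNF823 (15 fingers, KRAB) was under 1 FPKM in DMSO, at 0.521 and 0.574, then 1.63 and 0.669 after 2 h, 1.98 after 6 h and 2.68 after 12 h, so its place rests on values near the filter and its 2 h libraries disagree.

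A pair of neighbours was highest at 6 h, a reading that rests on 1 library each at 6 h and 12 h. The 12 h value was under the 6 h value in 40 of the 132 members and in 7531 of the 13287 genes tested. ZNF57 (chr19:2900898-2918476, plus strand) and ZNF77 (chr19:2933218-2944971, minus strand) each encode 13 fingers and a KRAB pattern and lie at the start of the chromosome. ZNF57 had 1.99 and 1.74 FPKM in DMSO, 4.78 and 4.62 after 2 h, 7.96 after 6 h and 4.76 after 12 h. ZNF77 had 2.22 and 2.08 FPKM in DMSO, 5.13 and 5.94 after 2 h, 9.01 after 6 h and 5.05 after 12 h. Their levels moved almost in step, and at 12 h both were back near the 2 h level. The 2 h log2 differences were 1.29 ± 0.17 and 1.32 ± 0.17 (limma SE), with unadjusted limma p of 0.00268 and 0.00281 and adjusted p of 1. ZNF551, chosen after its values were seen, had the same late decline, from 15.9 FPKM at 6 h to 8.97 at 12 h.

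**Figure D4:**
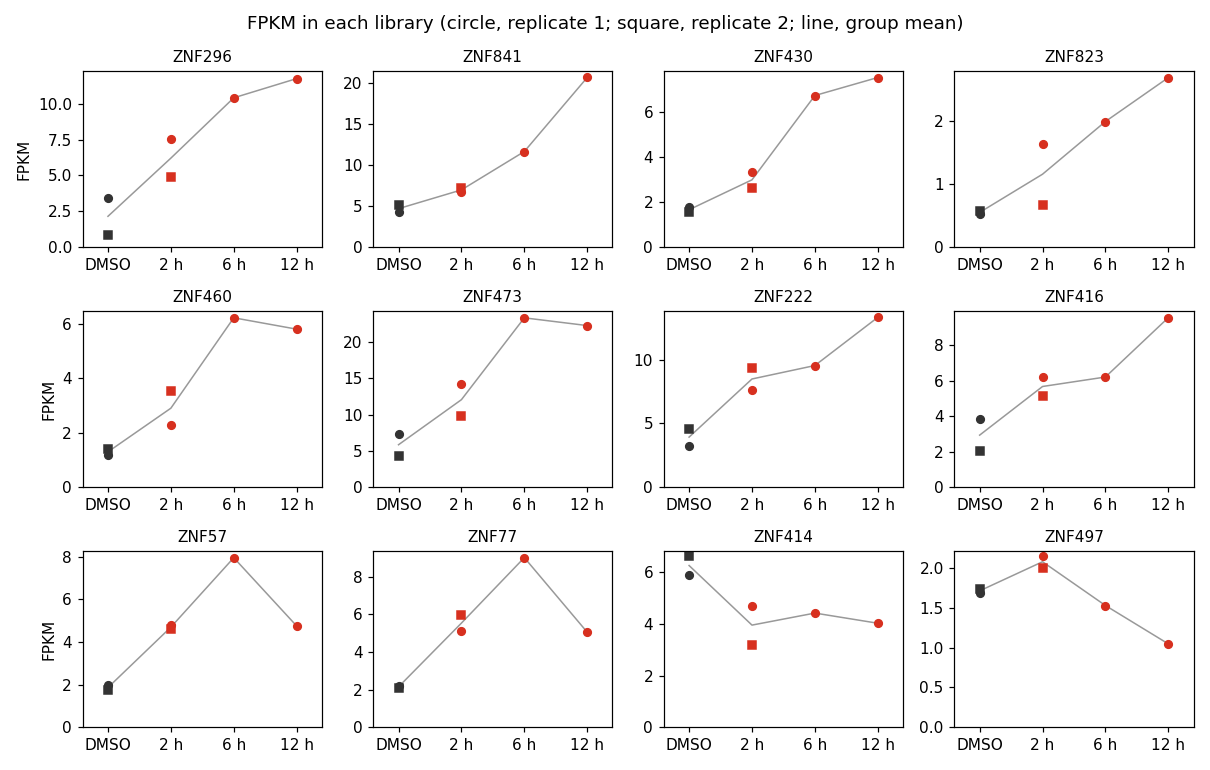
FPKM by library for 12 members, with circles for replicate 1, squares for the recovered replicate 2 and a line through the group means. ZNF57 and ZNF77 peak at 6 h near 8 to 9 FPKM, ZNF841, ZNF430 and ZNF296 are highest at 12 h, and ZNF414 and ZNF497 end under both DMSO libraries.

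Lower values were seen in 18 members at 2 h, 33 at 6 h and 16 at 12 h, none past 2-fold. ZNF414, a 3-finger protein without a KRAB pattern, had 5.88 and 6.65 FPKM in DMSO, 4.72 and 3.2 after 2 h, 4.43 after 6 h and 4.03 after 12 h, a log2 difference of -0.67 ± 0.27 (limma SE) at 2 h with an adjusted p of 1. ZNF497 had 1.68 and 1.74 FPKM in DMSO, 2.15 and 2.00 after 2 h, 1.53 after 6 h and 1.05 after 12 h, so it was above DMSO early and below it late. The remaining members with the lowest 12 h differences outside both DMSO libraries were ZNF837 (-0.58), ZNF772 (-0.47), ZNF577 (-0.44), ZNF585A (-0.40), ZNF446 (-0.36) and ZNF181 (-0.19). By the same limit the lowest at 2 h after ZNF414 were ZNF564 (-0.47) and ZNF428 (-0.21), and at 6 h ZNF772 (-0.73), ZNF564 (-0.67) and ZNF446 (-0.60). Over their transcripts, only 33.0% (ZNF564), 48.8% (ZNF446), 61.1% (ZNF497) and 75% (ZNF428) of 50-base windows were found in no other gene, so reads of these may be shared with copies or overlapping genes. The median of that share was 95.1% over the members that passed, and the 19 under 80% had a 12 h median difference of 0.50 against 0.60 in the other 113. These medians were 0.33 and 0.36 at 2 h, and 0.06 and 0.34 at 6 h. Over 2-fold higher at 12 h were 2 (10.5%) of the 19 and 32 (28.3%) of the 113, against 6.48% of all genes.

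The 5 most abundant members were mixed. ZNF146, built almost wholly of fingers, was the highest at 76.4 and 56.8 FPKM in DMSO, 87.0 and 60.2 after 2 h, 77.9 after 6 h and 69.4 after 12 h. ZNF787 had 75.4 and 47.9 FPKM in DMSO, 65.9 and 46.1 after 2 h, 71.9 after 6 h and 90.3 after 12 h. For both, the DMSO and 2 h ranges overlapped, but ZNF787 was above both DMSO libraries at 12 h with a log2 difference of 0.59, where ZNF146 had 0.07. ZNF114, ZNF580 and ZNF581 followed with means of 51.3, 36.2 and 33.0 FPKM and 12 h differences of 0.24, 0.63 and 0.23. ZNF580 is listed with the same values as a LOC symbol, one of 15 members (9 of them past the filter) whose values equal those of another symbol. ZNF121, a 9-finger protein and the highest of its cluster, differed more, at 8.23 and 7.75 FPKM in DMSO, 15.3 and 13.8 after 2 h, 17.4 after 6 h and 16.8 after 12 h. ZNF274, which recruits SETDB1 to the zinc finger clusters themselves, had 9.18 and 7.56 FPKM in DMSO, 10.7 and 12.0 after 2 h, 17.4 after 6 h and 19.6 after 12 h.

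By position, a gap of over 1 Mb between neighbours split the members into 16 clusters, of which 9 held at least 5 members and 236 members in all. The share of members expressed varied widely between them. In cluster 12 (ZNF575 to ZNF296, 43.5 to 45.1 Mb) 19 of 24 passed the filter, and in cluster 16 (ZNF628 to ZNF446, 55.5 to 58.5 Mb) 46 of 60. In cluster 5 (ZNF101 to ZNF726, 19.7 to 24.1 Mb) only 9 of 34 passed, with 8 listed at 0 throughout, and in cluster 3 (ZNF653 to ZNF791, 11.5 to 12.6 Mb) 9 of 26. Clusters 9 (ZNF146 to ZNF573) and 15 (ZNF175 to ZNF331) had 11 of 26 and 14 of 39.

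Higher levels at 12 h were spread over the clusters. The 12 h median was 1.19 in cluster 1 (ZNF554 to ZNF77, 3 members past the filter), 0.84 in cluster 2 (ZNF557 to ZNF846, 11), 0.88 in cluster 3 (9), 0.74 in cluster 5 (9), 0.59 in cluster 9 (11), 0.66 in cluster 12 (19), 0.72 in cluster 15 (14) and 0.40 in cluster 16 (46). Among these, every member past the filter was higher at 12 h in clusters 1, 3, 5 and 12. Cluster 8 (ZNF807 to ZNF792) was the exception, at -0.07, with 1 of its 3 higher, and its most abundant member ZNF302 was at 13.4 and 11.3 FPKM in DMSO and 11.8 at 12 h. Each cluster of at least 5 held from 1 to 7 members over 2-fold higher.

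Within a cluster the values were mixed. Cluster 16 ran from -0.66 (ZNF497) to 2.08 (ZNF460), and cluster 2 from -0.62 (ZNF414) to 1.49 (ZNF426). At the far end of cluster 16, near the end of the chromosome, 5 of the last 7 members past the filter were below both DMSO libraries at 12 h. In all, 10 of the 132 members were, against 35.6% of all genes. This run was noticed in the plot of members along the chromosome, and 2 of the 5, ZNF324 and ZNF324B, are listed with identical values. The most abundant members of other clusters, ZNF507, ZNF574, ZNF653, ZNF780A, ZNF101 and ZNF480, had 12 h differences of 0.01, 0.91, 0.21, 0.07, 1.16 and 0.52.

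**Figure D5:**
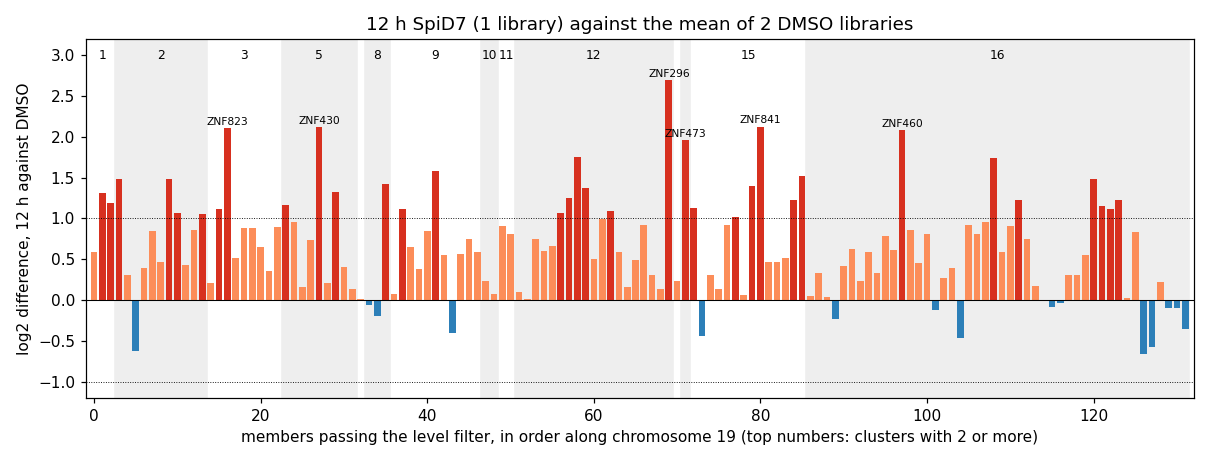
Log2 difference of the 12 h library from the mean of the DMSO libraries for the 132 members that passed the filter, in order along chromosome 19, with alternate shading by cluster, dotted lines at 2-fold, and dark red, orange and blue bars for over 2-fold higher, higher and lower. Bars over 2-fold occur in most clusters, and 5 of the last 7 bars are below 0.

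Among the 115 members under the filter, with a highest mean of 0.988 FPKM, 50 were above both DMSO libraries at 12 h and 4 below both, against 21.8% and 7.64% of the 16695 symbols under it. DMSO was listed at 0 in both libraries in 55 of the 115 and in 15 of the 50, and such a gene can only lie above. ZNF177 and ZNF559, listed with the same values, had the largest difference, from 0.05 and 0.06 FPKM in DMSO to 0.65 at 12 h.

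Partners of the KRAB proteins did not share the direction. Of 20 listed corepressor symbols 19 were found and all of these passed the filter, with medians of -0.02, 0.03 and -0.23 at the 3 times. TRIM28, the shared corepressor, had 399 and 272 FPKM in DMSO, 386 and 264 after 2 h, 381 after 6 h and 336 after 12 h. SETDB1 had 7.41 and 8.04 in DMSO and 7.37 at 12 h. CBX5, which encodes the HP1 alpha protein, was the lowest, at 18.6 and 13.3 FPKM in DMSO, 12.6 and 12.2 after 2 h, 10.2 after 6 h and 6.61 after 12 h, and the only one of the 19 past 2-fold at any time. MORC2 had the highest 12 h difference, at 0.30. No partner was called by limma at 2 h or over all SpiD7 libraries, and 0 had an unadjusted p under 0.05 at 2 h.

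Zinc finger genes of chromosome 19 under other names were mostly under the filter, with 5 of the 17 found passing it. Medians of the 5 were 0.08, 0.16 and 0.21, and none was past 2-fold. HKR1 was highest at 12 h, at 7.92 and 10.1 FPKM in DMSO and 13.4 at 12 h, and ZSCAN5A lowest, at 4.73 and 7.34 in DMSO and 5.88 at 12 h.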

How the data were processed

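RNA from OVCAR5 cells was sequenced as single reads of 50 bases from TruSeq V2 libraries. Per the labels and the study's methods, the authors used Trim Galore, TopHat2 2.0.8, Cufflinks 2.1.1 and Cuffdiff 2.1.1. The labels name both hg38 and a mouse build, and the loci fit hg38. The deposited table holds FPKM per gene for 4 comparisons, with the authors' log2 fold changes, p-values and q-values, which were not used. Read counts were not used here, so depth is unknown and the precision of a value is given only by the replicates.

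Columns of the second comparison behave as means of 2 libraries. Replicate 2 was taken as (mean - w × replicate 1)/w with w of 0.526 (DMSO) and 0.509 (2 h), and a remainder under 0.2% of the mean was set to 0. The 6 h and 12 h values were rescaled so that the DMSO library given in every such comparison agreed (factors 0.972 and 0.994). FPKM were summed by symbol.

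Genes with a mean of at least 1 FPKM were tested with limma 3.58.1 on log2(FPKM + 0.1), without a trend, at 2 h on the 4 libraries with replicates and otherwise on all 6, where the single libraries are assumed to vary like the pairs. No test of 6 h or 12 h alone was planned, as each is 1 library, and the values of those contrasts in the fit of all 6 libraries were added later. The scripts were tested on simulated data with 200 genes changed among 13287, at median log2 differences of 1.97 to 2.01. With each gene's own spread 0% of them were called. With the median spread of genes of like level 98% were called at 2 h and 100% over all SpiD7 libraries. Smaller differences were not simulated.

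Fingers and KRAB and SCAN patterns were counted in translated GENCODE coding sequences, in place of a protein table. Named members are the 8 largest differences each way at 12 h and 3 at 2 h and 6 h outside both DMSO libraries, the 5 most abundant, the highest of each cluster, 4 the study listed, and the extremes of the partner lists, with others said to be added or named for a sequence, count or known role. The members, lists and motifs were chosen with earlier results of these data known. Alternatives were other pseudocounts, filters, scalings, row choices, fits and left-out libraries.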

Additional observations from a re-analysis of the deposited data

How the results depend on the processing

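Directions held throughout: the median difference of the zinc finger genes was above 0 at 2 h, 6 h and 12 h under every alternative run. With a pseudocount of 1, 2, 14 and 19 members were over 2-fold higher at 2 h, 6 h and 12 h (1.32%, 3.88% and 4.40% of all genes), and the medians at 2 h and 12 h were 0.26 and 0.43. Without a filter on low values, those medians were 0.24 and 0.43 and 2 members were called by limma between 12 h and 2 h. With the replicate 2 columns taken as they stand, limma called 2 members at 2 h and 29 over all SpiD7 libraries, and the medians at 2 h and 12 h were 0.29 and 0.50. In that reading the spread shrinks by construction. At 2 h, 8.99% of all genes then had an unadjusted limma p under 0.05 and were higher, against 2.52% in the main fit. Shares of all genes called were not kept for these settings, so the counts are no result about the members.

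Leaving out a DMSO or 2 h library in turn gave 8 to 11 members over 2-fold higher at 2 h (11 without 2 h replicate 2), with 2.49 to 5.59% of all genes. The 2 h libraries do not enter the 6 h and 12 h differences. Without DMSO replicate 1 the counts were 28 at 6 h (7.76% of all genes) and 40 at 12 h (7.01%). Without DMSO replicate 2 they were 19 (6.28%) and 37 (8.21%). The medians at 2 h, 6 h and 12 h ranged from 0.30 to 0.38, 0.29 to 0.40 and 0.53 to 0.65. From 0 to 1 member was over 2-fold lower at 12 h, ZNF548 being the one without DMSO replicate 1, and 0 at 2 h and 6 h. With limma, 0 members were called in each of the 3 contrasts.

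DMSO and 2 h share replicate numbers 1 and 2 without a stated link. Same-numbered libraries deviated together (r = 0.369 across all genes and 0.68 across the members, which are not independent). With the replicate number as a block, limma called 0 members at 2 h, and 61 members had an unadjusted p under 0.05 and were higher (9.69% of all genes), against 29 without it (2.52%).

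Of the values of single named members recomputed, 842 moved by less than 1 SD between the DMSO libraries and 74 by more. That count does not measure stability, since many values could not move further. A 12 h value does not use the 2 h libraries, and leaving out 1 DMSO library shifts any value by less than 1 SD by construction. Changes of sign could count as under 1 SD, as in ZNF114 at 2 h, at 0.30 and, without DMSO replicate 1, -0.06. The filter on DMSO levels and leaving out members that share values were chosen after seeing the data and moved no count of members called or past 2-fold from DMSO by over 1.5 times. Without read counts, low members cannot be told from noise of few reads.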
